A study of Mus musculus with 10 samples.

Results

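The caspase genes CASP1, CASP2, CASP4, CASP6, CASP8, CASP9 and CASP10 and the caspase-related gene CARD16 were followed in human breast cancer cells that carry the estrogen receptor and had been grown in mice, as primary tumors and as lymph node metastases. Every probe set that the platform's annotation table assigns to exactly 1 of these 8 gene symbols was taken, which gave 33 of the 61359 probe sets on the array (8 of 19556 genes). CASP2 had 8 of them, CASP6 had 7, CARD16 had 4, CASP4, CASP8, CASP9 and CASP10 had 3 each, and CASP1 had 2. One more probe set carries the symbols of both CARD16 and CASP1 and was left out for that reason. The 8 genes had been picked with earlier results of these arrays in view, among them the high value of CARD16 and the low value of CASP9 in primary tumors with estrogen, so the primary tumor values below are a description without a test.

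The hosts were female nu/nu mice, 20 weeks old, all of which had received an estrogen pellet. In the groups marked E the pellet stayed in place, and in the groups marked EWD it was taken out for 1 week to withdraw estrogen. Tumor cells were cut from frozen sections by laser capture, and the small amount of RNA was expanded by PCR. Mice 6, 11 and 14 gave axillary lymph node metastases with E, and mice 9, 10 and 19 gave them with EWD. Primary mammary gland tumors came from mice 11 and 14 with E and mice 10 and 19 with EWD, so that the replicate was the mouse and 4 of the 6 mice gave both sites, for 10 arrays in all. The labels do not name the cell line, and the nu/nu host, which lacks a thymus, keeps other immune cells. The organism field names the mouse, while the probe sets are human.

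Caspases are proteases that cut their targets after aspartate residues and are made as inactive precursors. Initiator caspases are switched on in large complexes, CASP8 and CASP10 at death receptors, CASP9 on the apoptosome that forms around APAF1 and cytochrome c, and CASP2 on the PIDDosome. They activate executioner caspases, which take the cell apart. CASP6 is counted among the executioners and cuts nuclear lamins, while CASP1 and CASP4 belong to the inflammatory branch that matures cytokines and opens gasdermin pores. CARD16 lies beside CASP1 and encodes little more than a CARD, the recruitment domain that it shares with CASP1, and binds CASP1 without having protease activity.

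All values are log2 signals as deposited by the authors, with 1 value per probe set and array. Array medians lay between 2.70 and 2.83. The arrays of primary tumors with E had a narrower range, with 99th percentiles of 9.44 and 10.04, against 11.39 to 11.67 on the other 8. The mean of 18 hybridization control probe sets, which read RNA spiked in at hybridization, put 4 arrays on a high side (12.04 to 12.47), namely the lymph nodes of mice 11 and 19 and the primary tumors of mice 10 and 19, and the other 6 on a low side (9.47 to 10.59). Within primary tumors this side and the pellet state cannot be told apart. Of 8 luminal markers, KRT18 (11.18 to 13.47), EPCAM (8.64 to 12.41) and GATA3 (9.64 to 12.96) were high on every array, while KRT8 read 5.73 to 9.61, FOXA1 4.08 to 7.87 and KRT19 only 3.90 to 4.97. The estrogen receptor gene ESR1 varied widely, from 5.44 in the lymph node of mouse 11 with E to 12.65, and MUC1 read 7.38 to 11.87. The mean of the 8 markers was 7.51 and 7.62 in primary tumors with E against 9.69 and 9.79 with EWD, and 8.43 to 9.39 in lymph nodes with E against 9.91 to 10.18 with EWD. It was thus lowest in primary tumors with E, the arrays of the CARD16, CASP9 and CASP6 values described below, and its part in those values was not tested. High signals were lower on these arrays in general. Probe sets with a mean of 8 to 10 had a median difference, E minus EWD in primary tumors, of −1.3 as deposited. After quantile normalization between arrays that median was −0.06, and the marker mean was not taken on that scale. Of 11 leukocyte markers 10 were measured, and their mean was 2.64 to 2.96 on every array, with PTPRC at 2.00 to 2.54 and LYZ at 1.86 to 2.45, while CD79A read 3.73 to 6.52. Leukocytes of the host would be mouse cells and these probe sets are human, so the values cannot show how many were captured. In captured tissue, fewer cells that express a gene and less RNA of it per cell cannot be told apart.

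Of the 33 probe sets, 28 had a mean over the 10 arrays at or above the 25th percentile of all probe sets that are not controls, a log2 value of 2.311, and entered the fits. The 5 that did not were 1 of CASP1, 2 of CASP2 and 2 of CARD16, and they ranged from 1.72 to 2.77 over the 10 arrays. In primary tumors 13 of the 28 had a higher mean with E than with EWD and 15 a lower one, with a median difference of −0.11, while the median over all 45974 probe sets of the fit was 0.00. In lymph nodes 14 were higher and 14 lower, with a median of 0.02 and a range of −0.69 to 0.33. Primary tumor differences of 1 log2 unit or more without overlap belonged to CARD16 on the high side (1 of 28) and to CASP9 and CASP6 on the low side (4 of 28). Over all probe sets of the fit 2.46% were higher and 15.3% lower by that rule, so the low side was near the share of all. After quantile normalization between arrays, CARD16 and CASP8 were higher and CASP9 alone was lower by it, with 6.34% and 8.67% over all.

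**Figure D1:**
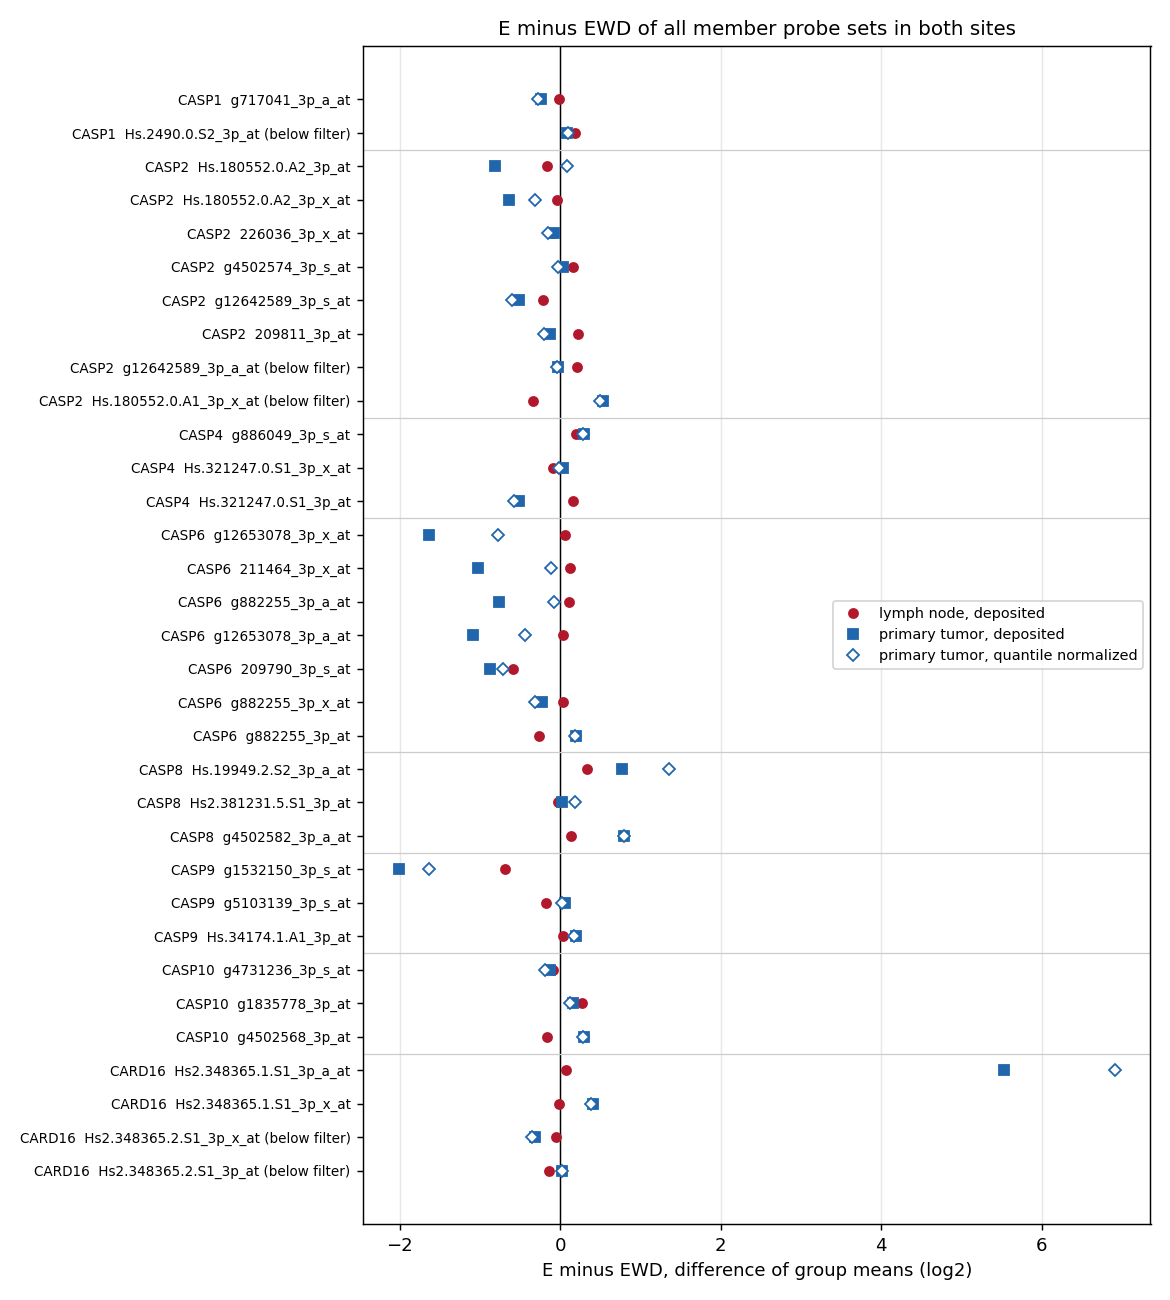
Difference of group means, E minus EWD, on the log2 scale (x axis) for each of the 33 probe sets (rows, grouped by gene), in lymph nodes as deposited (circles), in primary tumors as deposited (filled squares) and in primary tumors after quantile normalization (open diamonds). In primary tumors CARD16 probe set Hs2.348365.1.S1_3p_a_at lies at 5.53 and CASP9 probe set g1532150_3p_s_at at −2.01, against 0.07 and −0.69 for the metastases.

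CARD16 rested on 1 of its 4 probe sets. Probe set Hs2.348365.1.S1_3p_a_at read 11.19 in mouse 11 and 10.63 in mouse 14 in primary tumors with E, against 5.17 in mouse 10 and 5.60 in mouse 19 in primary tumors with EWD. In lymph nodes it read 3.92, 5.66 and 4.50 with E (mice 6, 11 and 14) and 3.39, 4.09 and 6.37 with EWD (mice 9, 10 and 19). Both primary tumors with E stood above all other arrays, the nearest being the withdrawn lymph node of mouse 19, while the lymph node groups overlapped. The primary tumor means were 10.91 ± 0.40 (SD, n = 2) with E and 5.38 ± 0.30 (SD, n = 2) with EWD, a difference of 5.53, and after quantile normalization between arrays it was 6.91.

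The other CARD16 probe sets did not show a change of that size. Hs2.348365.1.S1_3p_x_at, designed to the same sequence cluster, read 3.17 and 3.51 in primary tumors with E against 3.05 and 2.81 with EWD, without overlap and with a difference of 0.41. On the lymph node arrays it lay at 2.70 to 3.24. Hs2.348365.2.S1_3p_x_at read 1.95 and 2.32 with E against 2.37 and 2.54 with EWD, a difference of −0.32, and Hs2.348365.2.S1_3p_at stayed between 1.92 and 2.22 on all 10 arrays. In Affymetrix naming, the letter a marks probes that match several transcripts of 1 gene, s marks probes shared by several transcripts, and x marks probes that may cross-hybridize. CARD16 and CASP1 share sequence, and how much of each probe set's signal comes from either gene was not tested.

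**Figure D2:**
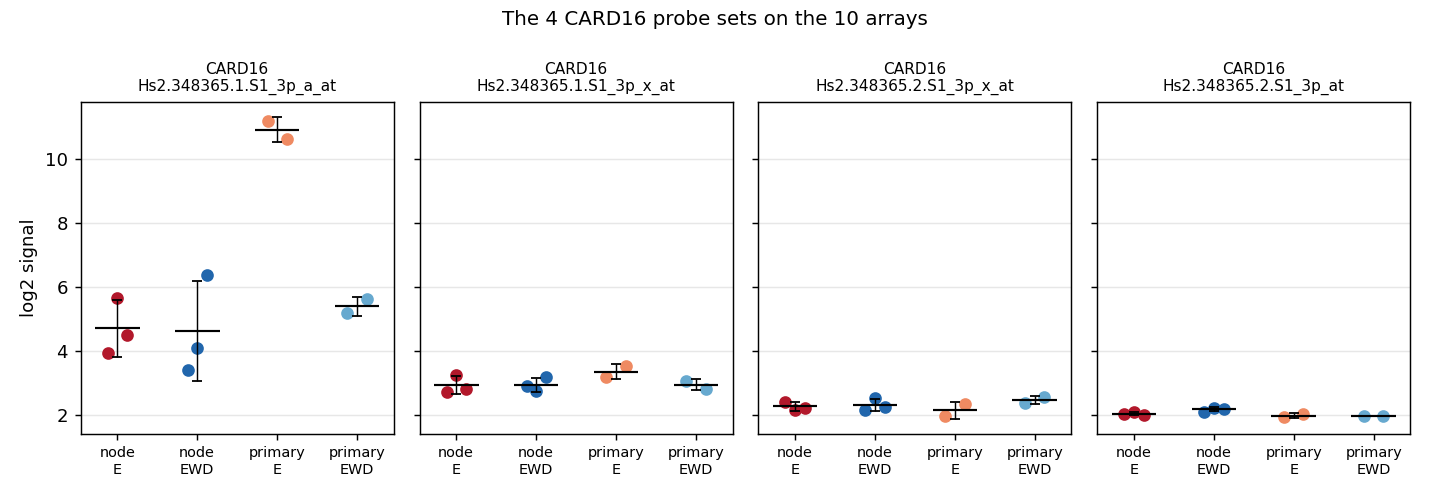
Log2 signal (y axis) of the 4 CARD16 probe sets (panels) in lymph nodes and primary tumors with E and EWD. Points are arrays, horizontal lines are group means and bars are the SD. In the first panel primary tumors with E lie at 11.19 and 10.63 and no other array exceeds 6.37, whereas the other 3 panels do not exceed 3.51.

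The CARD16 value went with other measures. On the 8 arrays other than primary tumors with E, probe set Hs2.348365.1.S1_3p_a_at followed the hybridization controls: it read 5.17 to 6.37 on the 4 arrays of the high side and 3.39 to 4.50 on the 4 of the low side. Of all 45974 probe sets, 3.84% were higher on the high side without overlap among these 8 arrays and 5.53% lower. Of the 28 caspase and CARD16 probe sets, 2 were higher, this one and CASP2 probe set 226036_3p_x_at, and 1 was lower. Both primary tumors with E were on the low side. With the side as a covariate, whose effect could be estimated only within the lymph node groups, the CARD16 difference was 7.58 in primary tumors (5.53 without it) and −6.91 between lymph nodes and primary tumors with E (−6.22 without it). The gap of 4.26 between the lower of these tumors and the highest other array was reached or exceeded by 12 probe sets of the 45974, this one included. CARD16 had been picked with its high value in these tumors in view, so this count is a description only.

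Among 17169 genes, each represented by its probe set with the highest mean, the 5 most like CARD16 by Pearson correlation over the 10 arrays were EGFR (r = 0.999), the olfactory receptor pseudogene OR7E2P (0.992), SHROOM1 (0.992), VSX1 (0.990) and LRRC25 (0.989). EGFR, a growth factor receptor, read 12.58 and 11.64 in primary tumors with E against 6.15 and 6.33 with EWD. VSX1, a homeobox factor of the eye, read 11.15 and 10.67 with E against 6.20 and 6.09 with EWD. EGFR also had its highest lymph node values in mouse 11 with E (6.61) and mouse 19 with EWD (7.08), as CARD16 did. In all, 33 other probe sets of the 45974, these 5 included, correlated with CARD16 at r of 0.98 or more. These correlations rest on 2 arrays far from the rest, share those arrays and are given as a description.

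**Figure D3:**
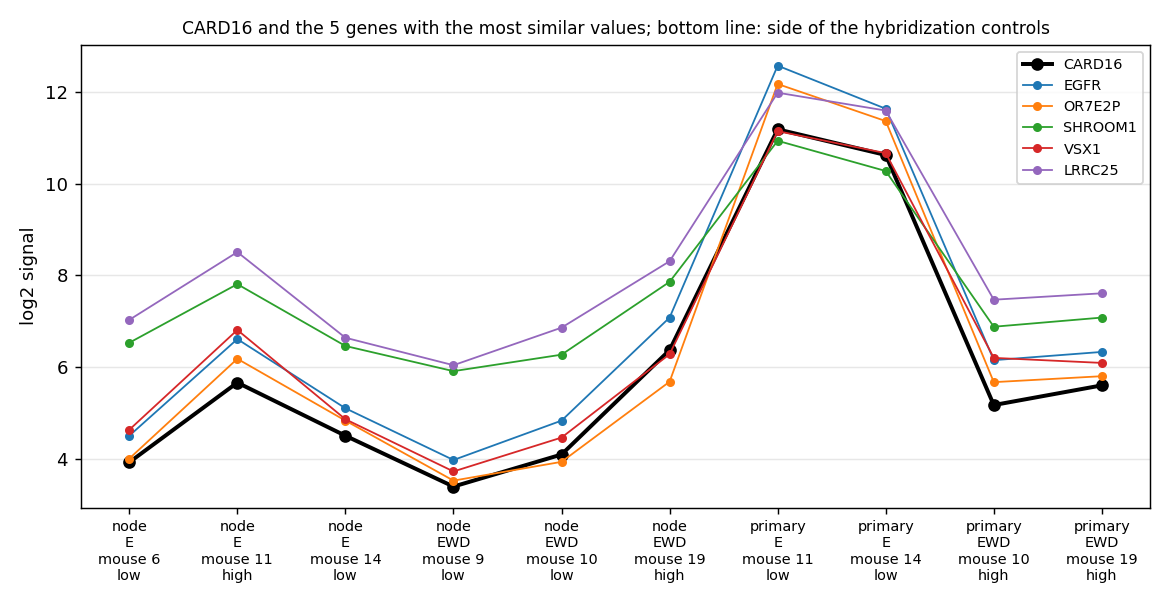
Log2 signal (y axis) of CARD16 and of the 5 genes with the highest correlation to it on each of the 10 arrays (x axis), with the site, the pellet state, the mouse and the side of the hybridization controls below each array. All 6 lines peak on the primary tumors with E of mice 11 and 14 and have their next highest values among the high-side arrays.

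The inflammatory caspases CASP1 and CASP4 had values near the array medians in every group. CASP1 probe set g717041_3p_a_at read 2.49 and 2.15 in primary tumors with E and 2.75 and 2.37 with EWD, with overlap. In lymph nodes it averaged 2.29 ± 0.05 (SD, n = 3) with E and 2.30 ± 0.12 (SD, n = 3) with EWD. The second CASP1 probe set stayed between 1.83 and 2.21 on the 10 arrays. Neither CASP1 probe set was high in primary tumors with E, where the CARD16 probe set was.

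The 3 CASP4 probe sets disagreed. Probe set g886049_3p_s_at read 3.10 and 2.59 in primary tumors with E and 2.31 and 2.77 with EWD, and the groups overlapped. Probe set Hs.321247.0.S1_3p_at read 2.34 and 2.30 with E, below 3.18 and 2.49 with EWD, a difference of −0.52 in which mouse 10 stood highest. The third stayed between 2.44 and 3.28 on all arrays, with a difference of 0.04.

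The death receptor initiator CASP8 was read in one direction by its 3 probe sets in primary tumors, and was the only 1 of the 8 genes for which that held. Probe set g4502582_3p_a_at read 3.02 and 3.42 with E and 2.45 and 2.41 with EWD, without overlap and with a difference of 0.79 both as deposited and after quantile normalization. Probe set Hs.19949.2.S2_3p_a_at read 6.25 and 5.72 with E against 5.74 and 4.69 with EWD, so the groups overlapped by a small margin. Its difference was 0.77 as deposited and 1.36, without overlap, after quantile normalization. The third probe set differed by 0.02. CASP10, a close relative that lies beside CASP8 in the genome, stayed between 2.13 and 2.90 on the 10 arrays in its 3 probe sets, with primary tumor differences of −0.13 to 0.30.

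CASP9, the initiator of the apoptosome, was low in primary tumors with E by 1 of its 3 probe sets. Probe set g1532150_3p_s_at read 4.80 in mouse 11 and 4.57 in mouse 14 with E, against 6.93 in mouse 10 and 6.47 in mouse 19 with EWD. The groups did not overlap, and the means were 4.69 ± 0.16 (SD, n = 2) with E and 6.70 ± 0.33 (SD, n = 2) with EWD. The difference was −2.01, and −1.63 after quantile normalization. Probe sets g5103139_3p_s_at and Hs.34174.1.A1_3p_at stayed between 2.18 and 3.13 on all arrays, with differences of 0.06 and 0.20. The 5 genes most like this CASP9 probe set over the 10 arrays were C1GALT1C1 (r = 0.975), SNX3 (0.973), PXDN (0.971), SLC25A38 (0.968) and YWHAZ (0.967), again a description over arrays that share 2 low values.

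CASP2, the PIDDosome caspase, had a pair of probe sets well above the array medians. Probe set Hs.180552.0.A2_3p_at read 6.80 and 6.63 in primary tumors with E, below 8.13 and 6.93 with EWD, and its difference of −0.81 became 0.08 after quantile normalization, −2.31 with the side of the hybridization controls as a covariate and −1.41 to −0.22 with 1 array left out. Its companion Hs.180552.0.A2_3p_x_at read 4.90 and 4.68 with E and 6.01 and 4.85 with EWD. Both had their lowest value on the lymph node array of mouse 11 with E, at 5.59 and 4.22. The other 6 stayed between 1.72 and 3.41 on all arrays. Of these, g12642589_3p_s_at read 2.26 and 2.63 with E, below 2.85 and 3.05 with EWD.

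CASP6, the executioner of the set, had 6 of its 7 probe sets lower in primary tumors with E. Probe set g12653078_3p_x_at read 6.27 and 6.53 with E against 8.20 and 7.85 with EWD, while the lymph nodes lay at 7.89, 8.30 and 8.14 with E and 7.94, 8.13 and 8.08 with EWD. Primary tumors with E were thus below all 8 other arrays, with a mean of 6.40 ± 0.18 (SD, n = 2) against 8.02 ± 0.25 (SD, n = 2) with EWD. Probe set 211464_3p_x_at read 6.61 and 6.94 with E against 7.48 and 8.12 with EWD, and g12653078_3p_a_at read 5.45 and 6.17 against 6.96 and 6.84. The differences of these 3 were −1.63, −1.03 and −1.09 as deposited and −0.78, −0.11 and −0.44 after quantile normalization, and after it only the first of the 3 did not overlap. Probe set g882255_3p_a_at read 5.25 and 6.74 with E and 6.73 and 6.79 with EWD, so that mouse 11 set its difference of −0.76. The remaining differences were −0.87, −0.23 and 0.20.

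**Figure D4:**
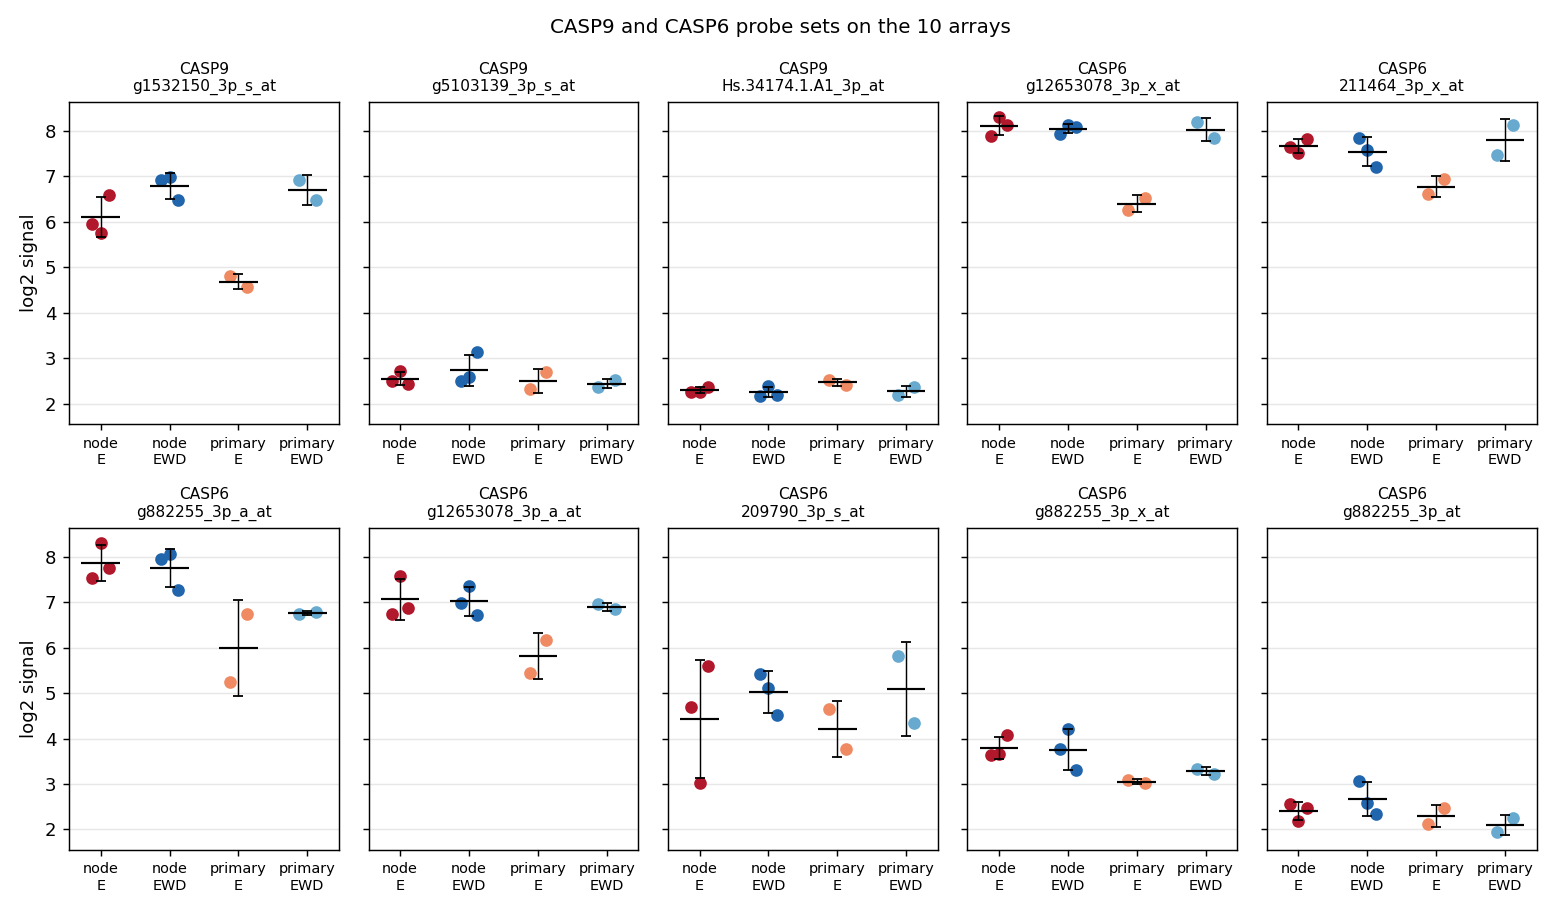
Log2 signal (y axis) of the 3 CASP9 and 7 CASP6 probe sets (panels) in lymph nodes and primary tumors with E and EWD. Points are arrays, horizontal lines are group means and bars are the SD. Primary tumors with E lie lowest in the panels of CASP9 g1532150_3p_s_at (4.57 to 4.80) and CASP6 g12653078_3p_x_at (6.27 to 6.53), and the other CASP9 panels stay at or below 3.13.

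Over the 28 probe sets of the fit, 6 were higher and 8 lower in primary tumors with E without overlap, where 24.5% and 28.7% of all probe sets were. Of these, 1 was higher and 4 were lower by 1 log2 unit or more: CARD16 Hs2.348365.1.S1_3p_a_at, CASP9 g1532150_3p_s_at and the CASP6 probe sets g12653078_3p_x_at, 211464_3p_x_at and g12653078_3p_a_at. Over all probe sets of the fit 2.46% were higher and 15.3% lower by the same rule. After quantile normalization 2 were higher (CARD16 and CASP8 Hs.19949.2.S2_3p_a_at) and 1 lower (CASP9), with 6.34% and 8.67% over all. On the deposited scale low values went with high signal in general: probe sets with a mean of 6 to 8, where CASP9, CASP6 and CASP2 have their highest-mean probe sets, had a median primary tumor difference of −0.75, and those with a mean below 4 had 0.08. After quantile normalization these medians were 0.02 and 0.04.

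In lymph nodes the comparison of E with EWD was tested with limma over all 45974 probe sets with Benjamini-Hochberg adjustment. Its arrays differ from those of the primary tumor comparison, but 4 of the 6 mice gave both, and its E arrays also enter the site comparison with E. Beyond the primary tumor values of CARD16 and CASP9 named at the start, which values chose the genes is not stated. The test is thus not fully independent of the choice of genes. None of the 28 probe sets was called at an adjusted p below 0.05, where limma called 0% higher and 0% lower over all probe sets. At an unadjusted p below 0.05 limma had 1 of the 28 lower, CASP9 g1532150_3p_s_at, and 0 higher, against 2.89% lower and 1.82% higher over all. That probe set read 5.96, 5.76 and 6.59 with E (mice 6, 11 and 14) and 6.92, 6.98 and 6.47 with EWD (mice 9, 10 and 19). The groups overlapped only in that mouse 14 with E exceeded mouse 19 with EWD. The difference was −0.69 ± 0.26 (SE, limma adjusted p = 0.975), −0.68 between the low-side arrays and −0.71 between the 1 high-side array of each group (mouse 11 with E, mouse 19 with EWD). Over the alternatives it was −0.93 to −0.52, with limma adjusted p of 0.294 to 1, and it stayed negative whichever array was left out.

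No other member had an unadjusted p below 0.05 in lymph nodes. CARD16 Hs2.348365.1.S1_3p_a_at differed by 0.07 ± 0.73 (SE, limma adjusted p = 0.999), with 0.46 between low-side arrays and −0.71 between the high-side arrays of mouse 11 with E and mouse 19 with EWD. The highest was CASP8 Hs.19949.2.S2_3p_a_at, which read 5.57, 5.99 and 6.39 with E and 5.85, 5.99 and 5.11 with EWD (0.33 ± 0.37, SE, limma adjusted p = 0.993). CASP6 g12653078_3p_x_at differed by 0.06 ± 0.18 (SE, limma adjusted p = 0.996) and CASP2 Hs.180552.0.A2_3p_at by −0.17 ± 0.59 (SE, limma adjusted p = 0.998). For CASP6 209790_3p_s_at, which read 4.69, 3.03 and 5.59 with E and 5.43, 5.12 and 4.51 with EWD, the lowest value was again that of mouse 11. No probe set of the 28 had lymph node groups without overlap, where 4.54% of all were higher and 4.76% lower without overlap. These results do not show that the genes had equal levels, since changes far above a probe set's standard error were not called either. IL1RN, described below, differed by 1.92 ± 0.21 (SE) in lymph nodes and was not called (limma adjusted p = 0.0918). The standard errors were 0.73 for CARD16 Hs2.348365.1.S1_3p_a_at, 0.26 for CASP9 g1532150_3p_s_at and 0.18 for CASP6 g12653078_3p_x_at. The primary tumor differences of the same probe sets were 5.53, −2.01 and −1.63. These errors do not show whether changes of that size would have been called in lymph nodes.

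The sites were compared after withdrawal in the same fit, with the reservation that its primary tumor arrays also enter the comparison for which members had been picked. Limma called 0 of the 28 and 0% of all probe sets in either direction. At an unadjusted p below 0.05 limma had 1 of the 28 higher in lymph nodes, CASP8 g4502582_3p_a_at, and 0 lower, against 6.67% higher and 2.3% lower over all. It read 3.06, 3.18 and 2.85 in lymph nodes, above 2.45 and 2.41 in primary tumors (0.60 ± 0.24, SE, limma adjusted p = 0.505). CASP6 g882255_3p_a_at read 7.94, 8.05 and 7.27 in lymph nodes, above 6.73 and 6.79 in primary tumors (1.00 ± 0.44, SE, limma adjusted p = 0.558). CASP9 g1532150_3p_s_at differed by 0.09 ± 0.30 (SE, limma adjusted p = 0.965) and CASP6 g12653078_3p_x_at by 0.02 ± 0.21 (SE, limma adjusted p = 0.990), and for both the withdrawn groups overlapped. CARD16 Hs2.348365.1.S1_3p_a_at differed by −0.79 ± 0.84 (SE, limma adjusted p = 0.858). In all, 4 of the 28 were higher and 1 lower without overlap, close to the 18.5% and 9.91% of all probe sets.

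With E, lymph nodes were set against the same primary tumor arrays that stand out above, so the values are given without a test. CARD16 Hs2.348365.1.S1_3p_a_at averaged 4.69 ± 0.89 (SD, n = 3) in lymph nodes and 10.91 ± 0.40 (SD, n = 2) in primary tumors, a difference of −6.22. CASP9 g1532150_3p_s_at averaged 6.10 ± 0.43 (SD, n = 3) in lymph nodes and 4.69 ± 0.16 (SD, n = 2) in primary tumors, a difference of 1.41. CASP6 g12653078_3p_x_at, g882255_3p_a_at and g12653078_3p_a_at were higher in lymph nodes by 1.72, 1.86 and 1.26. Without overlap 7 of the 28 were higher and 2 lower in lymph nodes, where 20.7% and 12.1% of all probe sets were. By 1 log2 unit or more as well, 4 of the 28 were higher and 1 lower in lymph nodes, where 10.2% and 1.46% of all were. After quantile normalization this left 1 higher (CASP9) and 1 lower (CARD16), with 2.68% and 2.97% over all. This comparison and the primary tumor one share the primary tumors with E.

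Agreement among the probe sets of a gene was limited. The sign of the primary tumor difference matched that of the gene's highest-mean probe set for 3 of 3 in CASP8, 6 of 7 in CASP6, 6 of 8 in CASP2, 3 of 4 in CARD16, 2 of 3 in CASP4, 1 of 3 in CASP9, 1 of 3 in CASP10 and 1 of 2 in CASP1. Each count includes the highest-mean probe set itself. Over the probe sets past the filter alone, 3 genes in place of 1 had all in agreement: CASP8, CARD16 and CASP1, of which 1 probe set was left. As a description over 10 arrays, Pearson r between the CASP2 pair Hs.180552.0.A2_3p_at and Hs.180552.0.A2_3p_x_at was 0.94, and between the CASP6 probe sets g12653078_3p_x_at and g12653078_3p_a_at 0.91. The 21 CASP6 pairs had a median r of 0.51 and the 28 CASP2 pairs one of −0.06. CARD16 Hs2.348365.1.S1_3p_a_at had an r of 0.77 with Hs2.348365.1.S1_3p_x_at, whose range was 0.81 log2 units against 7.80.

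Related genes were described from lists of textbook members, each gene by its highest-mean probe set. CASP12, CARD17, RIPK1 and BIRC3 were not analysed here. In lymph nodes limma called 0 of the 41 genes of these lists that were tested, and 0 after withdrawal between the sites. The smallest adjusted p belonged to IL1RN, the interleukin-1 receptor antagonist, at 6.95, 7.14 and 6.88 with E and 5.40, 4.68 and 5.13 with EWD (1.92 ± 0.21, SE, limma adjusted p = 0.0918), and 1 of its 3 probe sets had that sign. FAS, the death receptor that recruits CASP8, read 5.23, 5.28 and 5.85 with E and 4.24, 4.90 and 3.94 with EWD (1.10 ± 0.34, SE, limma adjusted p = 0.828, with 4 of 5 probe sets of that sign). BID, which CASP8 cuts to reach the mitochondria, read 8.19, 9.27 and 7.74 with E and 6.72, 7.23 and 7.05 with EWD (1.40 ± 0.59, SE, limma adjusted p = 0.993). GSN, the caspase substrate gelsolin, differed by −1.47 ± 0.53 (SE, limma adjusted p = 0.958), with 3 of its 8 probe sets of that sign.

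In primary tumors the apoptosome list around CASP9 was low with E on the deposited scale, 6 of its 7 genes without overlap and by 1 log2 unit or more, where 25% of 17169 genes were. Its median difference was −1.43 where that of all these genes was −0.10, and after quantile normalization the medians were −0.67 and 0.06. The CASP9 scaffold APAF1 averaged 3.07 ± 0.63 (SD, n = 2) with E and 4.50 ± 0.98 (SD, n = 2) with EWD, and 1 of its 3 probe sets had that sign. The inhibitor of apoptosis BIRC2 read 6.07 and 5.85 with E against 8.30 and 8.16 with EWD, and DIABLO, which relieves such inhibitors, read 7.98 and 8.16 with E against 10.23 and 10.18 with EWD. XIAP, which binds CASP9, read 5.69 and 5.79 with E against 6.39 and 7.74 with EWD, and 7 of its 9 probe sets had that sign. After quantile normalization 2 of the 7 were lower by that rule, APAF1 (−1.47) and BIRC2 (−1.48), and 1 was higher, BIRC5 (1.43), where 12.5% and 9.4% of all genes were. DIABLO then had −0.79 and XIAP −0.67, while cytochrome c (CYCS) had −0.06 in place of −1.80 and the protease HTRA2 0.02 in place of −1.11. In lymph nodes the list had a median of −0.57, with no gene called by limma.

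Of the 10 death receptor genes tested in primary tumors, 1 was higher and 3 lower by that rule, where 3.28% and 25% of all genes were. CFLAR, a catalytically inactive relative of CASP8 that restrains it, averaged 6.90 ± 0.37 with E and 8.42 ± 0.34 with EWD (SD, n = 2 each), and 11 of its 16 probe sets were of that sign. The adaptor FADD averaged 8.68 ± 0.37 with E and 10.18 ± 0.02 with EWD, a difference of −1.50 that became 0.07 after quantile normalization. The other two were receptors for the ligand TRAIL and are named after their values were seen: TNFRSF10A averaged 4.71 ± 1.00 with E and 3.59 ± 0.24 with EWD (SD, n = 2 each), and TNFRSF10B read 8.22 and 8.40 with E against 9.59 and 9.27 with EWD. The TNFRSF10B difference of −1.12, whose sign 2 of its 4 probe sets had, turned to 0.29 after quantile normalization. The list's median of −0.42 became 0.19 after quantile normalization, against −0.10 and 0.06 over all genes. By that rule 0 of its genes were then lower and 2 higher, where 12.5% and 9.4% of all genes were.

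Of the 12 inflammasome genes tested, 2 were higher and 1 lower in primary tumors by that rule, where 3.28% and 25% of all genes were. After quantile normalization 3 were higher and 1 lower, where 9.4% and 12.5% of all genes were. Their median difference was 0.36 as deposited and 0.48 after quantile normalization, against −0.10 and 0.06 over all genes. IL1RN read 6.77 and 6.84 with E and 4.77 and 4.46 with EWD, and 1 of its 3 probe sets had that sign. IL18, a cytokine matured by CASP1, read 5.08 and 5.58 against 3.46 and 4.95, with 3 of its 3 probe sets of that sign. NAIP, a sensor of bacterial proteins, read 4.49 and 2.61 with E and 5.68 and 8.35 with EWD. IL1B stood at 2.92 and 2.97 with E and 2.55 and 2.52 with EWD, the pore-forming GSDMD at 4.47 and 3.81 against 3.57 and 3.45, and the adaptor PYCARD at 7.75 and 7.23 against 6.89 and 7.46. The PYCARD difference of 0.32 in primary tumors was 1.38 after quantile normalization. PYCARD had its highest value, 10.88, in the lymph node of mouse 11 with E.

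Of the PIDDosome genes, PIDD1 averaged 5.19 ± 0.09 with E and 4.32 ± 0.37 with EWD in primary tumors (SD, n = 2 each), and its adaptor CRADD differed by −0.71. Among 9 caspase substrates 0 were higher and 1 was lower by the rule of no overlap and 1 log2 unit. Over all genes 3.28% were higher and 25% lower by it. The 1 lower was the kinase ROCK1 with a difference of −2.40, whose sign 2 of its 4 probe sets had. After quantile normalization 2 substrates were higher and 1 lower, where 9.4% and 12.5% of all genes were. LMNA, a lamin, read 7.26 and 7.53 with E and 7.82 and 6.83 with EWD. CASP14, a caspase of skin differentiation, read 4.32 and 3.11 with E against 2.80 and 2.43 with EWD, and CASP5 and the CARD-only gene CARD18, both below the filter, stayed between 1.84 and 2.67 on all arrays.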

How the data were processed

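Per the submitters' processing notes, the deposited log2 signals were made with Partek and RMA, whose versions are not given in the sources used here; the annotation table names probe sets, 44532 with 1 symbol, 1492 with several and 15273 with none, besides 62 controls. The arrays do not share 1 distribution. Members and lists were chosen with earlier results of these data known. Each gene's highest-mean probe set, and any that differed by 1 log2 unit without overlap, was given per array; list genes were named if called or if among the 2 greatest non-overlapping differences of a comparison, besides a fixed set.

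One limma 3.58.1 fit (R 4.3.3, lmFit and eBayes) held 1 mean per group, all 10 arrays and the mouse as a random block (consensus correlation −0.0507, kept in the alternatives). Deviations of the 2 arrays of a mouse correlated at 0.156 (mouse 10), −0.206 (11), −0.209 (14) and 0.0732 (19); the pairing comes from the animal. Tested on simulated lymph node data with 45974 probe sets, without the block, the fit recovered 30% of changes of 1 log2 unit, 81.5% of 2 and 93.5% of 4. The simulation used independent noise and held many added changes, which makes the adjusted threshold easier to pass. The real lymph node comparison called no probe set, so these rates may be too high for these data. Arrays give no counts, and their number limits the precision. The alternatives were quantile normalization, filters, blocks, a variance trend, 1 probe set per gene, the hybridization side and each array left out.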

Additional observations from a re-analysis of the deposited data

How the results depend on the processing

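In lymph nodes, E against EWD, limma called 0 probe sets in all; the count was 1 with the side of the hybridization controls as a covariate and 0 to 2 with 1 array left out (2 without the E lymph node of mouse 11 or of mouse 14). Between sites after EWD it called 0, 933 with that covariate and 0 to 15 with 1 array left out (15 without the E lymph node of mouse 11, 1 without that of mouse 14). None of the 28 member probe sets, or of those that passed the filter of a setting, was called under any of these; the lowest limma adjusted p among them was 0.294 in lymph nodes and 0.18 between sites. The 5 member probe sets that differed by 1 log2 unit without overlap in primary tumors became 3 after quantile normalization, 3 with 1 probe set per gene, and 4 to 7 with 1 array left out; the 5 between sites with E became 2, 3 and 5 to 6. The number of genes whose probe sets all agreed in sign in primary tumors was 1, and 3 over the probe sets past the filter. In the site comparison after EWD, none of it called, quantile normalization turned CASP6 g12653078_3p_x_at to −0.04 and CASP9 g1532150_3p_s_at to −0.02. The covariate turned CASP9 g1532150_3p_s_at to −0.25, CASP10 g4731236_3p_s_at to 0.17 and CARD16 Hs2.348365.1.S1_3p_a_at to 0.60. Its effect could be estimated only within the lymph node groups, while both withdrawn primary tumors were on the high side. These values and the 933 calls carry that estimate over to the primary tumors, where it could not be checked. A fixed replicate block of mouse turned CASP10 to 0.05, and no replicate block changed no call. With 1 array left out, these lymph node differences took both signs: CASP1 g717041_3p_a_at −0.06 to 0.05, CASP2 Hs.180552.0.A2_3p_at −0.57 to 0.55, CASP10 g4731236_3p_s_at −0.21 to 0.01, CARD16 Hs2.348365.1.S1_3p_a_at −0.54 to 0.95, and for CASP6 g12653078_3p_x_at −0.03 to 0.17, 211464_3p_x_at −0.05 to 0.27, g882255_3p_a_at −0.14 to 0.26 and g12653078_3p_a_at −0.20 to 0.22. Between sites after EWD this held for CASP2 Hs.180552.0.A2_3p_at (−0.92 to 0.31), CASP8 Hs.19949.2.S2_3p_a_at (−0.10 to 0.99), CASP9 g1532150_3p_s_at (−0.15 to 0.34), CASP10 g4731236_3p_s_at (−0.29 to 0.20) and, for CASP6, g12653078_3p_x_at (−0.15 to 0.20), 211464_3p_x_at (−0.56 to 0.06) and g12653078_3p_a_at (−0.05 to 0.26). None of these was called. The causes were not tested. Without 1 array, a group of 2 held 1 array, assumed to vary like the others.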

Other observations

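The probe set annotated with both CARD16 and CASP1, which entered no comparison, read 2.17 and 2.06 in primary tumors with E and 3.15 and 2.80 with EWD. In lymph nodes it read 2.18, 2.13 and 2.05 with E and 2.21, 2.23 and 2.35 with EWD. It was thus highest in withdrawn primary tumors, where CARD16 probe set Hs2.348365.1.S1_3p_a_at was not, and its values name neither gene.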
